A study of Homo sapiens with 4 samples.

Results

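The data described here are the differences between 22Rv1 and PC3 prostate cancer cells in their RNA response to morusin, a prenylated flavone from the root bark of mulberry. For each gene the change within a line was taken as log2 of (treated FPKM + 1) over (untreated FPKM + 1), where FPKM is fragments per kilobase of transcript, scaled to the mapped fragments of the library. The gap is the 22Rv1 change minus the PC3 change, so it is above 0 where the response stood higher in 22Rv1 and below 0 where it stood higher in PC3. All protein-coding genes with at least 5 FPKM in at least 1 library of each line were compared, which were 7287 genes of 19922 protein-coding and 60617 IDs in the table. A gap of 1, meaning responses that differ 2-fold, was the size used to describe genes as led by 22Rv1 (1 or more) or by PC3 (-1 or less).

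There were 4 libraries, 1 for each line and treatment: 22Rv1 left untreated, 22Rv1 given 75 µM morusin, PC3 left untreated and PC3 given 46 µM morusin, with treatment lasting 6 h. 22Rv1 cells grew in RPMI medium and PC3 cells in F12, each with heat-inactivated fetal bovine serum and antibiotics. 22Rv1 came from a xenograft of a prostate carcinoma, and PC3 came from a bone metastasis and grows without androgen. Each line stands for the tumour of 1 donor, and dose and medium change with the line, so line, dose and medium cannot be told apart in any gap. Where a pair of values is given for a line, the untreated library comes first. A gap uses all 4 values of a gene and leaves nothing from which to estimate spread between replicates. No test was therefore run, and a gap describes these 4 cultures by its size. Because FPKM are shares of a library, more RNA per cell and more cells with a transcript cannot be told apart either.

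Cells under acute chemical stress draw on several transcriptional programmes. Unfolded protein in the cytosol frees heat shock factor 1 (HSF1), which binds heat shock elements and induces HSP70 and its partners. Phosphorylation of the translation factor eIF2 favours synthesis of ATF4, which induces ATF3, DDIT3 and other genes of the integrated stress response. The MAP kinases p38 and JNK act on AP-1 and immediate early genes, many of whose mRNAs are short-lived. Zinc and other metals act through the factor MTF1 on metallothionein genes.

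The libraries were estimated at 19100000 to 40600000 read pairs from the steps between low values, and protein-coding FPKM summed to 322157 to 386820. Of 10 markers of 22Rv1, summed levels were 841 to 881 FPKM in 22Rv1 and 105 to 184 FPKM in PC3, and of 10 markers of PC3, 54.8 to 76.7 and 3965 to 4638 FPKM. HOXB13, a prostate homeobox factor in the 22Rv1 list, went against it, at 86.5 and 67.01 FPKM in 22Rv1 and 175 and 100.1 FPKM in PC3, and TRPM8 was at 0 in both 22Rv1 libraries. KLK4, a prostate kallikrein, was at 288 and 429 FPKM in 22Rv1 and at 0.0173 and 0 FPKM in PC3. KRT81, a hair keratin found in PC3, was listed at 0 in both 22Rv1 libraries and reached 848 FPKM or more in PC3. Of 13 markers of leukocytes, fibroblasts and endothelium, summed levels were 3.35 to 3.64 FPKM in 22Rv1 and 30.6 to 42.7 FPKM in PC3, with CD68 the main part of the PC3 sum, and CDH5 and VWF were at 0 in all 4 libraries. Some RNAs without a poly(A) tail differed between the libraries, with 4 U1 genes summing to 559 FPKM in treated 22Rv1 and to at most 8.39 FPKM in the others, and the part of this in the gaps was not tested. The counting error of a gap, computed from the estimated read pairs and given below as ±, had a median of 0.13 and covers counting error only.

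Responses of the lines were alike in direction for most genes and differed by a small amount for most. The changes correlated across the 7287 genes (Pearson r = 0.491, Spearman rho = 0.519, genes not being independent replicates), and 5013 genes (68.8%) had the same sign in both lines. The gap had a median of 0.06 and an SD across genes of 0.47, and 5485 genes (75.3%) had a gap within 0.5 of 0. It was above 0 in 4083 genes (56.0%) and below 0 in 3204 (44.0%), the shares against which counts of list members are given below. In 22Rv1, 156 genes (2.14%) were higher after morusin by 2-fold or more and 74 (1.02%) lower. In PC3 the balance lay the other way, with 48 genes (0.659%) higher by 2-fold or more and 207 (2.84%) lower.

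A gap of 1 or more was seen in 176 genes (2.42%) and a gap of -1 or less in 72 (0.988%), so that 71.0% of the genes past this size were led by 22Rv1. That share was 57.1% once the libraries were set to equal protein-coding sums, a scaling that moved the median change from -0.02 to -0.19 in 22Rv1 and to -0.11 in PC3. The sign of a change within a line that is smaller than this shift therefore depends on the scaling. At a 3-fold size the majority turned, with 10 genes led by 22Rv1 and 19 by PC3 (34.5% led by 22Rv1). In 127 of the 176 genes led by 22Rv1, the level was higher after treatment in 22Rv1 and lower in PC3. The same held for 1152 of all 7287 genes. The median changes of the 176 were 0.61 and -0.62. Only 3 of the 176 passed 2-fold in both lines, 35 did so in 22Rv1 alone, 47 in PC3 alone and 91 in neither. Among the 72 genes led by PC3, 57 were lower in 22Rv1 and higher in PC3, as were 1122 of all 7287 genes. The median changes of the 72 were -0.64 and 0.71. Of the 72, 8 passed 2-fold in both lines, 11 in 22Rv1 alone, 21 in PC3 alone and 32 in neither. Choosing genes by the gap partly fixes the counts of opposite signs and the median changes in both groups. At the edge of the size used, PPP6R2 (gap 1.002) was just inside and ANKLE2 (0.998) just outside, and RLIM (-1.001) was just inside and BCL6 (-0.996) just outside. All 4 libraries held 5 FPKM or more in 140 of the 176 and 52 of the 72 genes. The other 36 and 20 had at least 1 library under that level, so the filter let them through by the library in which they were higher. Allowing for 2 counting errors, 49 and 37 genes stayed beyond 1 and -1.

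**Figure D1:**
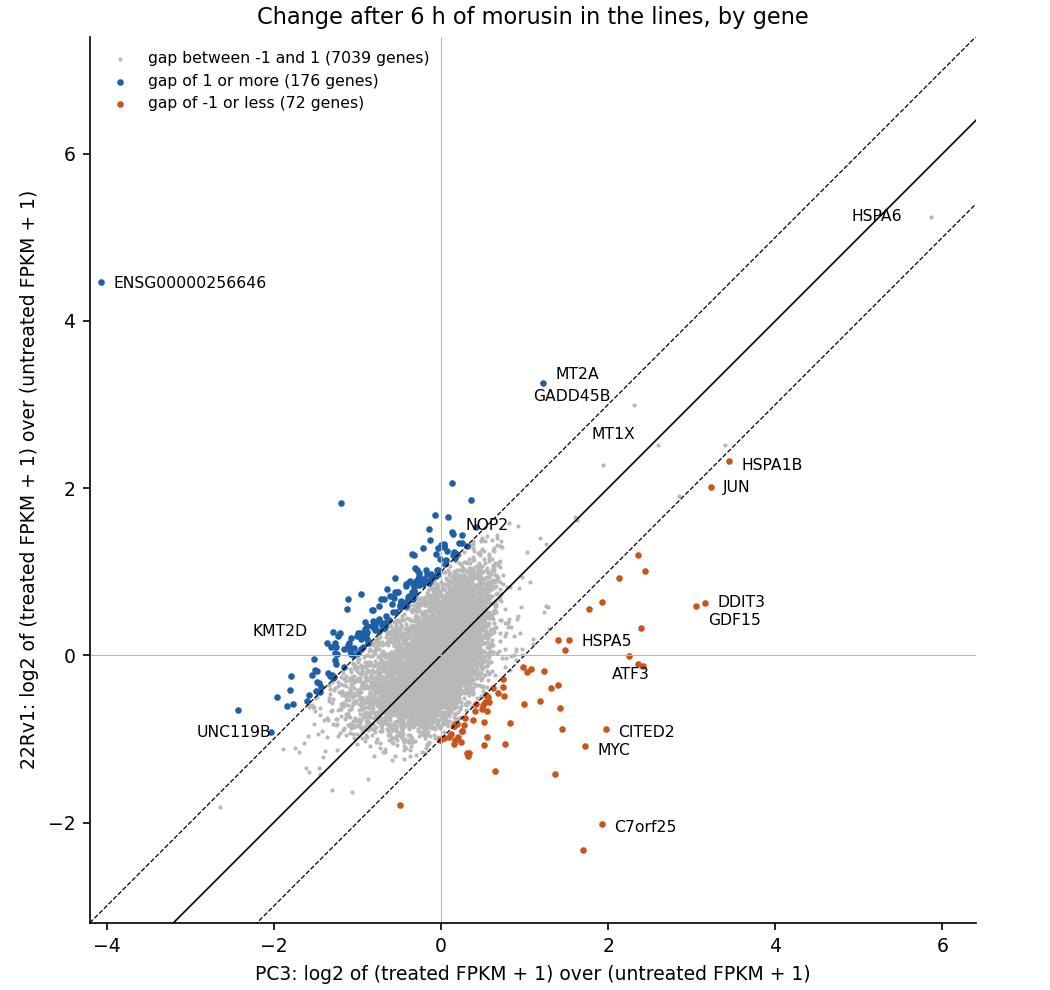
Each point is 1 of 7287 genes, with the log2 change in PC3 on the horizontal axis and in 22Rv1 on the vertical axis. The solid line marks equal changes and the dashed lines a gap of 1 or -1, beyond which lie 176 genes led by 22Rv1 (blue) and 72 led by PC3 (orange), while HSPA6 is far out along the line of equal changes.

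Of the genes with a symbol, the lowest gaps after that of C7orf25, which shares exons, were those of CITED2 and MYC. MYC, a transcription factor of growth and proliferation (chr8:127735434-127741434, GRCh38), stood at 149 and 69.6 FPKM in untreated and treated 22Rv1 and at 65.7 and 219 FPKM in untreated and treated PC3. Its level was thus lower after morusin in 22Rv1 and higher in PC3, with changes of -1.09 and 1.72 and a gap of -2.81 ± 0.049. CITED2, a coactivator-binding protein induced by several signals, went from 94.7 to 50.9 FPKM in 22Rv1 and from 7.397 to 31.99 FPKM in PC3 (gap -2.86 ± 0.083). Untreated cells differed in CITED2 by 3.51 on the log2 scale and treated cells by 0.65, so the lines lay closer together after morusin. SNAI2, a repressor of epithelial genes, followed the same course, from 13.7 to 7.01 FPKM in 22Rv1 and from 1.31 to 5.29 FPKM in PC3 (gap -2.32 ± 0.18, and -1.34 with 5 FPKM added before the log). HES1, a repressor downstream of Notch, had 19.1 and 8.59 FPKM in 22Rv1 and 9.82 and 17.4 FPKM in PC3, untreated first, which gave a gap of -1.83. ARRDC3, an alpha-arrestin, differed from these in that 22Rv1 barely moved, at 7.71 and 6.99 FPKM, while PC3 went from 6.01 to 36.4 FPKM (gap -2.54 ± 0.26).

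Among 29 immediate early genes, a list of AP-1 subunits, KLF and EGR factors and the like, 11 could be compared, and 5 of them were led by PC3 and none by 22Rv1, against 0.988% and 2.42% of all genes. Their median gap was -0.98, with a median change of -0.08 in 22Rv1 and 0.88 in PC3. JUN, an AP-1 subunit, was higher in both lines, at 10.3 and 44.5 FPKM in 22Rv1 and 22.7 and 221 FPKM in PC3, with the larger change in PC3 (gap -1.22 ± 0.062). KLF4, a zinc finger factor, was at 6.56 and 4.05 FPKM in 22Rv1 and 10.3 and 21.5 FPKM in PC3, with a gap of -1.57 ± 0.15. Of the 18 members left out, 7 were under 5 FPKM in 22Rv1 only, 4 in PC3 only and 7 in both. CCN1, a matrix protein, was one of those low in 22Rv1, at 0.682 and 2.24 FPKM there and 33.8 and 558 FPKM in PC3, and KLF6 was another, at 2.77 and 2.24 FPKM in 22Rv1 and 12.2 and 97.8 FPKM in PC3. FOS and EGR1, low in PC3, went the other way. FOS had changes of 2.03 in 22Rv1 and 1.26 in PC3, and EGR1 of 0.98 and 0.16. These genes have no gap here because both libraries of 1 line were under 5 FPKM.

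A list of growth arrest and mRNA decay regulators had the lowest median gap of the lists with at least 5 members compared, -1.09, with 5 of 10 genes led by PC3 and none by 22Rv1, beside 0.988% and 2.42% of all genes. Members of this list and of the immediate early list were chosen with earlier results of these data known. That choice may have partly fixed their ranks and counts. ZFP36, which binds AU-rich elements and speeds decay of the mRNAs that hold them, was at 6.02 and 5.54 FPKM in 22Rv1 and 2.14 and 15.1 FPKM in PC3 (gap -2.46 ± 0.23, and -1.56 with 5 FPKM added before the log). Its relative ZFP36L1 went from 26.9 to 20.3 FPKM in 22Rv1 and from 20.99 to 53.6 FPKM in PC3 (gap -1.70). PIM1, a survival kinase, was at 4.496 and 5.91 FPKM in 22Rv1 and 5.09 and 30.9 FPKM in PC3 (gap -2.06 ± 0.25). ZFP36 in PC3 and PIM1 in 22Rv1 reached 5 FPKM in the treated library only. CDKN1A, the cyclin-dependent kinase inhibitor p21, stood at 16.2 and 8.93 FPKM in 22Rv1 and at 6.76 and 10.1 FPKM in PC3 (gap -1.31 ± 0.15). In 22Rv1 the median change of these 10 genes was -0.18 and in PC3 it was 1.21. At least 2-fold higher were 1 and 6 members, beside 2.14% and 0.659% of all genes. GADD45B, a regulator of MAP kinase signalling and a member of this list, went the other way in its gap: it was at 5.43 and 50.4 FPKM in 22Rv1 and 13.6 and 71.3 FPKM in PC3, higher in both and more so in 22Rv1 (gap 0.69 ± 0.18).

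In the integrated stress response, 5 of 26 genes compared were led by PC3, beside 0.988% of all genes, and the rest of the list was not. DDIT3, the factor CHOP, was at 16.4 and 25.9 FPKM in untreated and treated 22Rv1 and at 8.33 and 82.1 FPKM in PC3. Both lines held more after morusin, with changes of 0.63 and 3.15 and a gap of -2.53 ± 0.13. ATF3 was level in 22Rv1, at 10.8 and 10.7 FPKM, and 4.76-fold higher in PC3 on the FPKM + 1 scale, at 5.404 and 29.5 FPKM (gap -2.26 ± 0.19). It is also counted among the 5 immediate early genes led by PC3. GDF15, a secreted stress cytokine, was at 6.55 and 10.4 FPKM in 22Rv1 and 33.1 and 281 FPKM in PC3 (gap -2.46 ± 0.21). PPP1R15A, the phosphatase subunit GADD34 that reverses eIF2 phosphorylation, passed 2-fold in both lines, at 8.36 and 17.9 FPKM in 22Rv1 and 29.2 and 163 FPKM in PC3 (gap -1.43 ± 0.096). Over the 26 members compared of 33, none was led by 22Rv1, beside 2.42% of all genes. Of their gaps, 11 were above 0, beside 56.0% of all genes, and the median was -0.11. ATF4 itself, at 188 and 253 FPKM in 22Rv1 and 71.1 and 92.1 FPKM in PC3, had a gap of 0.06 ± 0.036, and ASNS, the asparagine synthetase that it controls, one of -0.13.

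The windows before the starts of DDIT3 and PPP1R15A are printed to show where sites for AP-1 and for cyclic AMP response element binding factors fall in a pair of genes led by PC3. They are RefSeq sequences on GRCh38.p14, 5′ to 3′ on the gene's strand and ending at the base before the start. Capitals mark the AP-1 site TGANTCA in DDIT3, 231 bases before the start, and the cyclic AMP response element TGACGTCA in PPP1R15A, 50 bases before it.
DDIT3 (chr12:57520518-57520767, minus strand): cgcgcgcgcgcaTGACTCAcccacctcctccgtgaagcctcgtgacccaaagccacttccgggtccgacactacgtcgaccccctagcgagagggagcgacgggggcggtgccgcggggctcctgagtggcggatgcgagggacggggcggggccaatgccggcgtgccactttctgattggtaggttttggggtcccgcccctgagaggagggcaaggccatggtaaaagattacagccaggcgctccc
PPP1R15A (chr19:48872321-48872420, plus strand): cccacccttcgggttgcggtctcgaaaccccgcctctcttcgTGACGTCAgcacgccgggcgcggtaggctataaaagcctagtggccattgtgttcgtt

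Of 23 HSF1-controlled chaperone genes compared, 5 were at least 2-fold higher in each line. Among all genes, 2.14% were so in 22Rv1 and 0.659% in PC3. The genes for inducible HSP70 and its partner had the larger change in PC3. HSPA1B, one of a pair of nearly identical genes for inducible HSP70, was at 106 and 534 FPKM in 22Rv1 and 127 and 1399.6 FPKM in PC3, changes of 2.32 and 3.45 (gap -1.13 ± 0.024). Its copy HSPA1A was at 66.9 and 389 FPKM in 22Rv1 and 136 and 1439 FPKM in PC3 (gap -0.88), and reads of the pair may have been split between them. DNAJB1, the HSP40 partner of HSP70, went from 37.1 to 141 FPKM in 22Rv1 and from 136 to 982 FPKM in PC3 (gap -0.94 ± 0.078). HSPA6, nearly silent in unstressed cells, reached 39.3 FPKM in 22Rv1 from 0.0657 and 132 FPKM in PC3 from 1.28, changes of 5.24 and 5.86 that both far exceeded their gap of -0.62. HSPB1, the small heat shock protein HSP27, lay on the other side, with 209 and 556 FPKM in 22Rv1, 89.3 and 204 FPKM in PC3 and a gap of 0.22 ± 0.041. Of the 23 genes, 18 had a gap below 0 and 1 passed -1, beside 44.0% and 0.988% of all genes, with a median gap of -0.29 beside 0.06 for all genes. In the endoplasmic reticulum, HSPA5 (BiP) was at 174 and 199 FPKM in 22Rv1 and 109.9 and 321 FPKM in PC3 (gap -1.35 ± 0.021). It was the 1 past -1 of 23 genes of ER chaperones and degradation factors, beside 0.988% of all genes. The median gap of these 23 was -0.02 and changed sign under 2 of the other settings. EDEM1, which marks misfolded glycoproteins for degradation, was at 7.06 and 4.82 FPKM in 22Rv1 and 10.4 and 3.52 FPKM in PC3 (gap 0.86 ± 0.25).

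Heat shock elements, searched as GAANNTTC on both strands in the 250 bases before the RefSeq start, were found in 3.9% of the 6074 promoters matched by symbol among 7255 compared genes. They stood before 7 of 12 matched genes that were at least 2-fold higher in both lines, before 5 of 56 led by PC3 and before 3 of 133 led by 22Rv1. The windows of HSPA1B and DNAJB1 are shown, with the elements in capitals, because both genes were more than 2-fold higher in each line. HSPA1B has 1 match, 97 bases before the start, and DNAJB1 has 2, the nearer one 39 bases before it.
HSPA1B (chr6:31827588-31827737, plus strand): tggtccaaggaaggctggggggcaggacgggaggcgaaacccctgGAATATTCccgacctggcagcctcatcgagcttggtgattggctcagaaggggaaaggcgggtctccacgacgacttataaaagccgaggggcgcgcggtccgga
DNAJB1 (chr19:14518398-14518497, minus strand): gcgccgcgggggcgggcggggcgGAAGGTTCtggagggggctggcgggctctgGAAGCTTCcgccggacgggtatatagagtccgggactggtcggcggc

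Few NF-kB targets could be compared, and 1 of them was led by PC3 and none by 22Rv1, beside 0.988% and 2.42% of all genes. NFKBIA, the NF-kB inhibitor that NF-kB itself induces, was at 39.2 and 34.2 FPKM in 22Rv1 and 40.9 and 97.46 FPKM in PC3 (gap -1.42 ± 0.096). It was 1 of just 5 NF-kB targets that could be compared, since 13 of 26 were under 5 FPKM in 22Rv1 only and 8 in both lines. The median gap of the 5 was 0.15, and NFKB2, a precursor of an NF-kB subunit, lay on the other side at 20.7 and 29.9 FPKM in 22Rv1 and 19.3 and 16.6 FPKM in PC3 (gap 0.71 ± 0.13), as did NFKB1 (0.15) and BCL3 (0.58). The chemokine gene CXCL8, for example, was listed at 0 in both 22Rv1 libraries and went from 258 to 765 FPKM in PC3. Outside that list, YWHAZ, an adaptor protein often used as a reference gene, was at 712 and 584 FPKM in 22Rv1 and 436 and 729 FPKM in PC3 (gap -1.03 ± 0.024), a gap of -0.82 without the trend with GC content. Another 4 stress genes led by PC3 are named after their values were seen, and the lists above may already count some of them. These genes are the EGF receptor inhibitor ERRFI1 (gap -1.73), the AP-1 subunit JUND (-1.21), GADD45A (-1.28) and the amino acid transporter chain SLC3A2 (-1.23).

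Genes of sterol supply and of DNA replication had medians below 0 in their gaps. INSIG1, which holds the sterol sensor SCAP in the endoplasmic reticulum, was at 37.5 and 29.01 FPKM in 22Rv1 and 2.14 and 7.31 FPKM in PC3 (gap -1.76 ± 0.18, and -1.11 with 5 FPKM added before the log). The synthesis enzymes HMGCS1, at 55.5 and 35.1 FPKM in 22Rv1 and 12.9 and 18.5 FPKM in PC3, and MSMO1, at 25.9 and 18.3 FPKM in 22Rv1 and 5.79 and 10.5 FPKM in PC3, had gaps of -1.14 and -1.24. Of 23 cholesterol genes compared, 17 had a gap below 0, beside 44.0% of all genes, and the median changes were -0.25 in 22Rv1 and 0.10 in PC3. MCM4, a subunit of the replicative helicase, was at 173 and 109 FPKM in 22Rv1 and 23.01 and 34.2 FPKM in PC3 (gap -1.22 ± 0.08), and MCM10, a DNA replication factor, at 23.7 and 17.1 FPKM in 22Rv1 and 4.91 and 8.46 FPKM in PC3 (gap -1.13). Of 38 G1/S and replication genes, 32 had a gap below 0 and only these 2 were past -1, beside 44.0% and 0.988% of all genes. Their median gap was -0.45, with median changes of -0.16 in 22Rv1 and 0.23 in PC3. Mitosis genes had a median gap of 0.25 over 36 genes, and 20 of them were above 0, a share near the 56.0% of all genes. CKS2, a cyclin-dependent kinase subunit, was the 1 past the size used, at 39.8 and 73.6 FPKM in 22Rv1 and 53.4 and 48.4 FPKM in PC3 (gap 1.01 ± 0.10). That is 1 of 36 mitosis genes, beside 2.42% of all genes. Androgen response genes had a median near 0 (-0.08 over 15 genes), but 3 were led by PC3 and none by 22Rv1, beside 0.988% and 2.42% of all genes. FKBP5, a chaperone of steroid receptors, was at 274 and 172 FPKM in 22Rv1 and 12.4 and 16.7 FPKM in PC3 (gap -1.07 ± 0.049). The others were NDRG1 (gap -1.23) and ZBTB10 (-1.16).

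**Figure D2:**
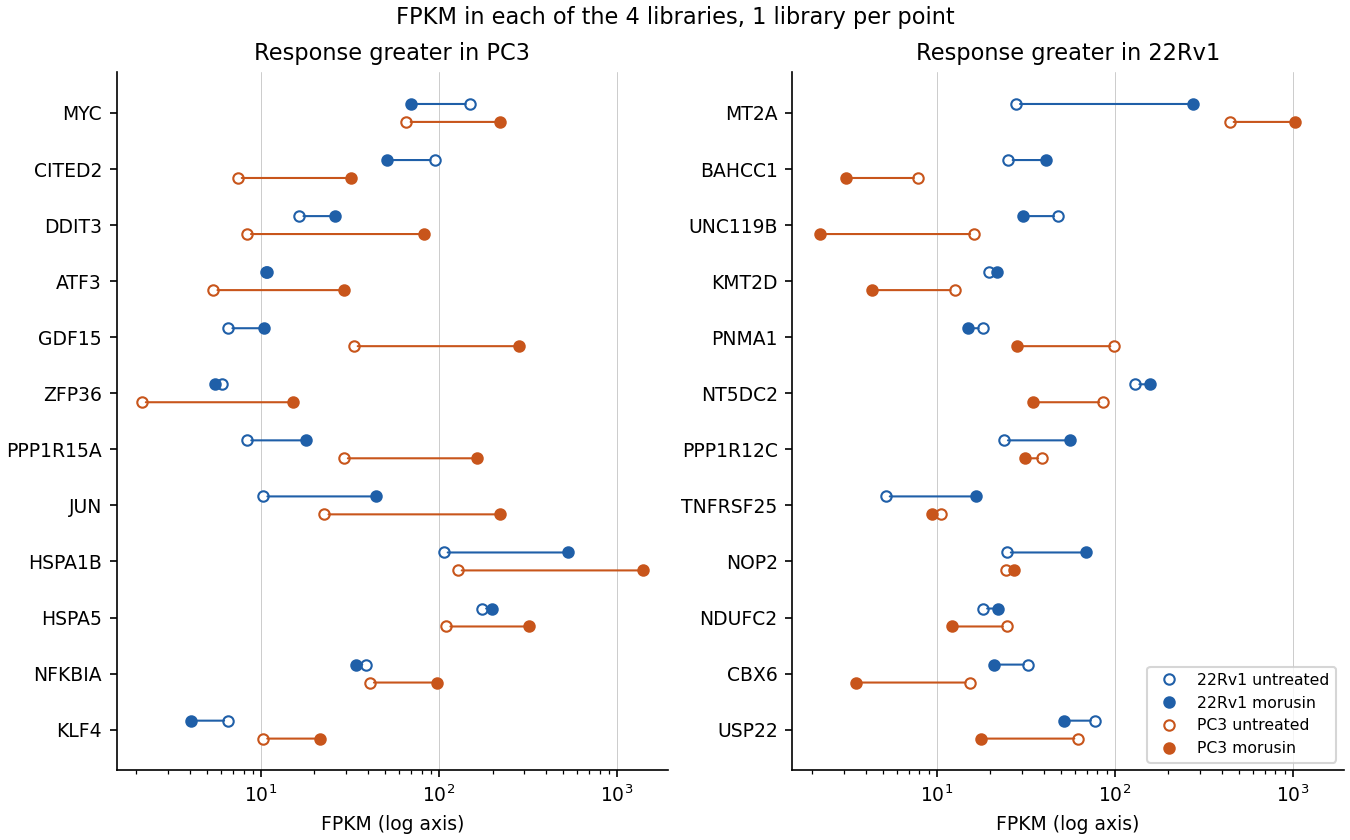
FPKM on a log axis for 12 genes led by PC3 (left) and 12 led by 22Rv1 (right), with open points for untreated and filled points for treated libraries, 1 library per point. The PC3 pair is the wider one on the left, as for DDIT3 at 8.33 and 82.1 FPKM, whereas on the right either 22Rv1 is higher after morusin, as in MT2A, or PC3 is lower, as in UNC119B.

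The widest gap in favour of 22Rv1 at a gene without shared exons was that of MT2A, a metallothionein that binds zinc and copper (chr16:56608199-56609497, GRCh38). Untreated and treated 22Rv1 held 27.8 and 276 FPKM and PC3 442 and 1031 FPKM, so that treated cells were 9.59-fold and 2.33-fold higher on the FPKM + 1 scale and the gap was 2.04 ± 0.074. PC3 stayed above 22Rv1 in level throughout, and the log2 difference between the lines went from -3.94 to -1.90. MT1X, a second metallothionein, did not share this gap: it was at 7.39 and 47.1 FPKM in 22Rv1 and 16.2 and 103 FPKM in PC3, changes of 2.52 and 2.59 (gap -0.08 ± 0.18). Of 14 metallothionein and zinc transport genes, 4 were compared and MT2A was the 1 past the size used, beside 2.42% of all genes. MT1G, MT1E, MT1M and MT1F passed 5 FPKM only in 22Rv1 and were not compared. MT1G was at 2.51 and 65.03 FPKM there and listed at 0 in both PC3 libraries. The zinc exporter SLC30A1, another target of MTF1, lay on the other side, at 5.16 and 5.76 FPKM in 22Rv1 and 2.62 and 6.75 FPKM in PC3 (gap -0.96 ± 0.11).

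The windows before MT2A and MT1X are given because these neighbours on chromosome 16 differed in their gap. Capitals mark metal response elements, searched as TGCGCNC or TGCACNC on both strands, of which MT2A has 7 and MT1X 4 in the 250 bases before the RefSeq start, overlapping matches counted separately. At least 1 match was found in 35.5% of all promoters compared, 37.6% of those led by 22Rv1 and 35.7% of those led by PC3. The start used for MT2A lies 385 bases from the leading start of the GENCODE 29 gene.
MT2A (chr16:56608334-56608583, plus strand): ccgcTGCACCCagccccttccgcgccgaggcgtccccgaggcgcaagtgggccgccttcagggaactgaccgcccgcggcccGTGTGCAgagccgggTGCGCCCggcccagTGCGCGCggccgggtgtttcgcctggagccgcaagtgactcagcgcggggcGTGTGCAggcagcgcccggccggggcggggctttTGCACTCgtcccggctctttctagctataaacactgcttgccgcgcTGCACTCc
MT1X (chr16:56682320-56682469, plus strand): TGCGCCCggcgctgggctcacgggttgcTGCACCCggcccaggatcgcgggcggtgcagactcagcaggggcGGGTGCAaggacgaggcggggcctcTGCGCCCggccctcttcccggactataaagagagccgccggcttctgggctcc

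Apart from MT2A, the genes most led by 22Rv1 were mainly lower in PC3 or mainly higher in 22Rv1. UNC119B, a chaperone of lipid-modified proteins, was at 48.2 and 30.4 FPKM in 22Rv1 and 16.3 and 2.21 FPKM in PC3, lower in both but 5.39-fold in PC3 on the FPKM + 1 scale (gap 1.78 ± 0.22, and 0.97 with 5 FPKM added before the log). BAHCC1, a chromatin protein with a BAH domain, was at 25.3 and 40.9 FPKM in 22Rv1 and 7.87 and 3.09 FPKM in PC3 (gap 1.79 ± 0.21). KMT2D, a histone H3 lysine 4 methyltransferase, was nearly level in 22Rv1, at 19.6 and 21.9 FPKM, and lower in PC3, at 12.6 and 4.32 FPKM (gap 1.51 ± 0.22). PNMA1, a neuronal antigen of paraneoplastic disease, and NT5DC2 were also lower in PC3, PNMA1 at 18.2 and 15.1 FPKM in 22Rv1 and 99.8 and 28.1 FPKM in PC3 (gap 1.54) and NT5DC2 at 130.4 and 158 FPKM in 22Rv1 and 86.5 and 34.7 FPKM in PC3 (gap 1.57). USP22, the deubiquitinase of the SAGA complex, was at 77.5 and 51.6 FPKM in 22Rv1 and 62.6 and 17.7 FPKM in PC3 (gap 1.19 ± 0.12), and CBX6, a Polycomb protein, at 32.6 and 21.1 FPKM in 22Rv1 and 15.3 and 3.54 FPKM in PC3 (gap 1.24 ± 0.1, and 0.72 with 5 FPKM added before the log). They were the 2 past 1 among 20 chromatin repressors and ubiquitin hydrolases, beside 2.42% of all genes. Of the 20, 16 had a gap above 0, beside 56.0% of all genes, with a median of 0.29. SKI, a co-repressor of TGF-beta signalling, went from 37.99 to 12.8 FPKM in PC3 and from 18.9 to 13.8 FPKM in 22Rv1 (gap 1.07 ± 0.22). TNFRSF10B, a receptor for the death ligand TRAIL, was level in 22Rv1, at 13.95 and 14.2 FPKM, and lower in PC3, at 40.4 and 19.7 FPKM (gap 1.02 ± 0.13).

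Genes of the second kind were higher in 22Rv1, with a smaller change in PC3. TNFRSF25, the death receptor DR3, was at 5.17 and 16.6 FPKM in 22Rv1 and 10.5 and 9.399 FPKM in PC3 (gap 1.66 ± 0.18). PPP1R12C, a regulatory subunit of myosin phosphatase, was at 23.8 and 55.9 FPKM in 22Rv1 and 39.2 and 31.2 FPKM in PC3 (gap 1.52 ± 0.086), and TRIM7, a ubiquitin ligase, at 3.87 and 10.3 FPKM in 22Rv1 and 6.23 and 4.704 FPKM in PC3 (gap 1.56 ± 0.16, and 0.998 with 5 FPKM added before the log). NOP2, a methyltransferase of ribosomal RNA, went from 24.7 to 69.2 FPKM in 22Rv1 and from 24.4 to 27.2 FPKM in PC3 (gap 1.30 ± 0.11). However, 54.4% of its exon bases are shared with a neighbouring gene, and the sum with that gene had a gap of 0.56, under the size used. ULK1, the kinase that starts autophagy, was at 24.1 and 36.7 FPKM in 22Rv1 and 17.6 and 12.6 FPKM in PC3 (gap 1.04 ± 0.11). Genes named NPIP, a family of nearly identical copies on chromosome 16, were noticed after the values were seen. Of 6 compared, 4 had a gap of 1 or more, beside 2.42% of all genes, and the lowest gap was 0.94. NPIPB5 was at 18.4 and 49.5 FPKM in 22Rv1 and 11.5 and 10.4 FPKM in PC3 (gap 1.52), and how reads were split among these copies is unknown. In all, 18 of the 176 genes led by 22Rv1 (10.2%) lie on chromosome 16, which holds 5.17% of the genes compared.

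Broad but small gaps in favour of 22Rv1 ran through genes of energy and protein synthesis. Of 76 nuclear-encoded genes of oxidative phosphorylation, 64 had a gap above 0 and 5 passed 1, beside 56.0% and 2.42% of all genes, with a median of 0.38 and median changes of 0.68 in 22Rv1 and 0.23 in PC3. NDUFB4, a subunit of complex I, was at 140.4 and 274 FPKM in 22Rv1 and 72.1 and 66.3 FPKM in PC3 (gap 1.08 ± 0.068), and NDUFC2, another, at 18.2 and 22.1 FPKM in 22Rv1 and 24.8 and 12.2 FPKM in PC3 (gap 1.23 ± 0.18). All 78 cytosolic ribosomal protein genes could be compared, and 72 had a gap above 0, beside 56.0% of all genes, but none reached 1 (median 0.35). RPS29 was the highest, at 85.2 and 231 FPKM in 22Rv1 and 77.5 and 114 FPKM in PC3 (gap 0.88 ± 0.069). The 13 mRNAs of the mitochondrial genome had median changes of -0.88 in 22Rv1 and -0.72 in PC3. Of these, 6 and 3 were at least 2-fold lower, beside 1.02% and 2.84% of all genes. The 13 differed among themselves: MT-ND3 had a gap of -0.94 and MT-ND6 of 0.83. MT-CYB was at 1106 and 1097 FPKM in 22Rv1 and 375 and 256 FPKM in PC3.

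**Figure D3:**
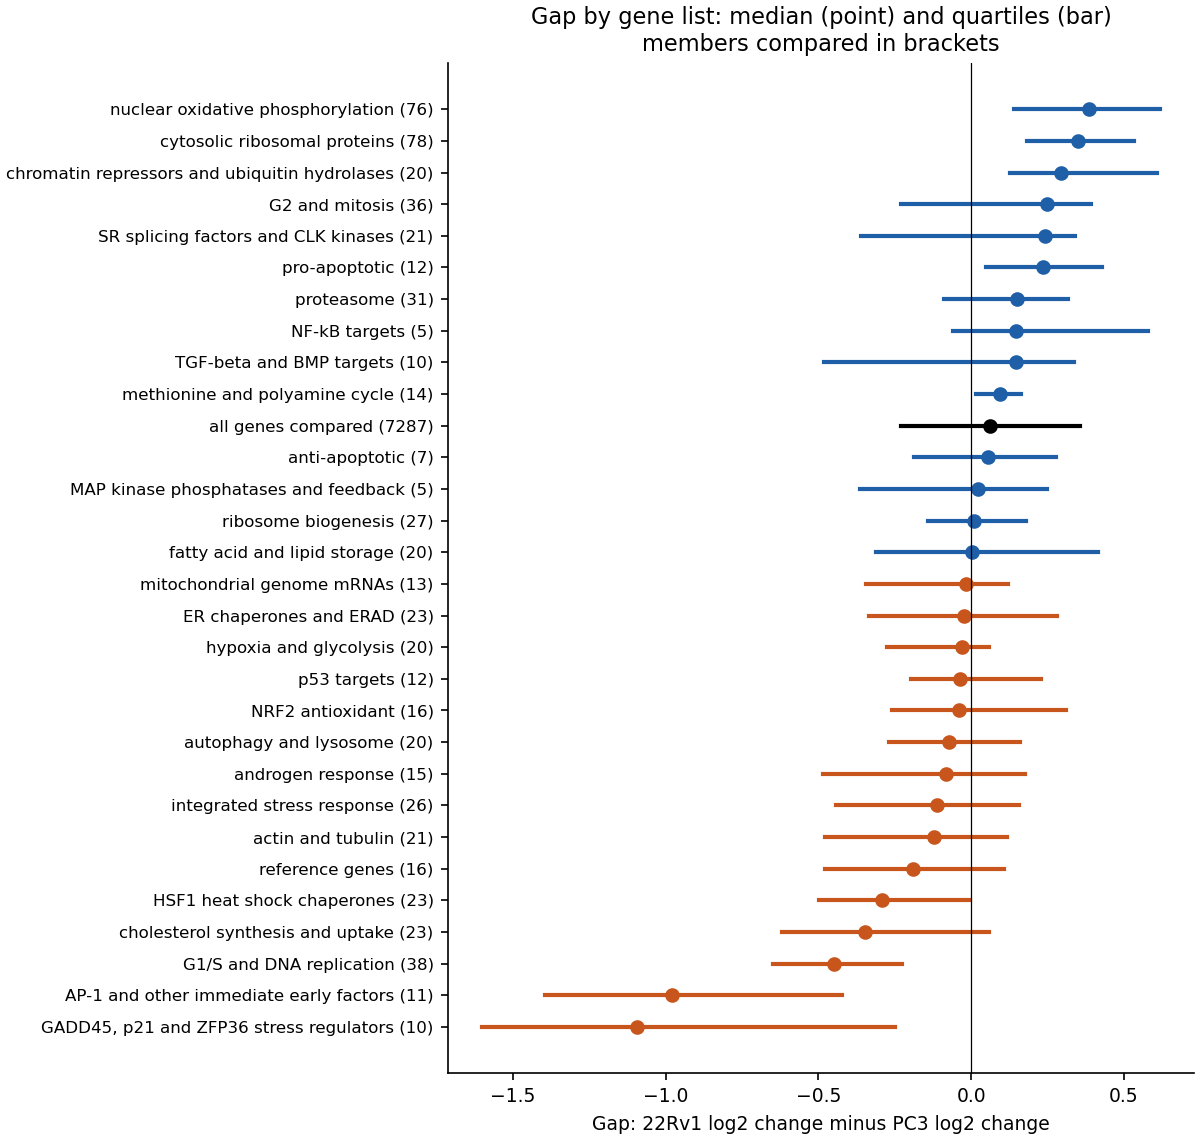
Median gap (point) and quartiles (bar) of the gene lists with at least 5 members compared, the number compared in brackets, with all 7287 genes in black at a median of 0.06. The lists of growth arrest regulators and immediate early factors stand lowest, near -1, and oxidative phosphorylation and ribosomal protein genes highest, below 0.5.

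The other lists with at least 5 members compared had medians closer to that of all genes. Among lists with fewer, interferon-stimulated genes had a median of 0.44 over 4 of 32 and a list of STAT3 and EGF receptor signalling -0.94 over 3 of 19. Above 0 were SR splicing factors and CLK kinases (0.24), pro-apoptotic genes (0.23), proteasome (0.15), TGF-beta targets (0.15) and methionine and polyamine genes (0.09). Below 0 were actin and tubulin genes (-0.12), reference genes (-0.19), autophagy genes (-0.07), p53 targets (-0.04), hypoxia genes (-0.03) and NRF2 targets (-0.04). The kinase CLK2 illustrates a spread within a list, at 44.6 and 98.02 FPKM in 22Rv1 and 14.8 and 18.5 FPKM in PC3 (gap 0.82 ± 0.074), against CLK1 at 15.05 and 15.9 FPKM in 22Rv1 and 13.3 and 25.6 FPKM in PC3 (gap -0.82 ± 0.13). Cytoskeletal genes also split. Cytoplasmic actin ACTG1 was at 1555 and 1937 FPKM in 22Rv1 and 713 and 1749 FPKM in PC3 (gap -0.98 ± 0.012), and thymosin TMSB10, which binds actin monomers, at 2117 and 4698 FPKM in 22Rv1 and 513 and 645 FPKM in PC3 (gap 0.82 ± 0.024). The medians of the NRF2 and anti-apoptotic lists changed sign under 2 and 3 of the other settings. Anti-apoptotic genes had a median gap of 0.06 over 7 genes. BCL2L2 (BCL-W) was at 12.3 and 9.46 FPKM in 22Rv1 and 12.1 and 4.72 FPKM in PC3 (gap 0.85 ± 0.26), while BCL2L1 (BCL-X) leaned the other way, at 26.2 and 20.2 FPKM in 22Rv1 and 195 and 218 FPKM in PC3 (gap -0.52 ± 0.10).

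A response shared by the lines at 2-fold or more was seen in 31 genes, 16 higher and 15 lower in both, and 16 of these had a gap within 0.5 of 0. ZKSCAN1, a zinc finger factor, was at 32.1 and 11.4 FPKM in 22Rv1 and 15.1 and 4.94 FPKM in PC3, changes of -1.42 and -1.44 (gap 0.02 ± 0.075). CCNT1, the cyclin of the elongation factor P-TEFb, was at 18.6 and 8.42 FPKM in 22Rv1 and 12.8 and 5.84 FPKM in PC3 (gap -0.05 ± 0.16). TXNIP, which restrains glucose uptake, was at 38.2 and 13.9 FPKM in 22Rv1 and 15.1 and 4.38 FPKM in PC3 (gap 0.18 ± 0.15), and CBX5, the heterochromatin protein HP1 alpha, at 88.9 and 37.6 FPKM in 22Rv1 and 16.2 and 5.45 FPKM in PC3 (gap 0.19 ± 0.12). For these 4 genes the lines were lower by nearly the same factor from different starting levels. Within the shared set, 9 of the 16 higher genes had the larger change in PC3, and so did 12 of the 15 lower genes.

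Seen from the level rather than the change, a gap is the shift in the difference between the lines when both are treated. The order of the lines was exchanged in 71 of the 176 genes led by 22Rv1 and 36 of the 72 led by PC3. Among all 7287 genes it was exchanged in 1163. The choice of genes by this shift partly fixes the counts of 71 and 36. MYC was among the 36, with a log2 ratio of 22Rv1 to PC3 of 1.17 untreated and -1.64 treated.

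**Figure D4:**
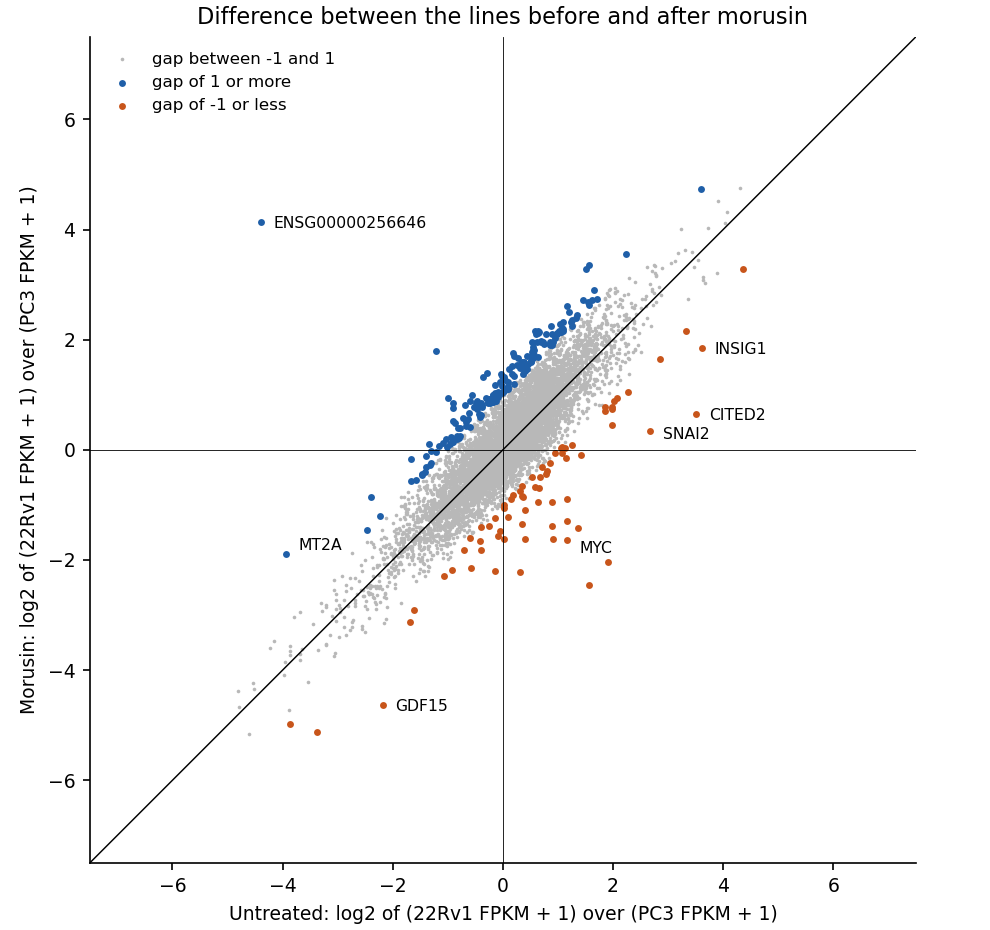
Log2 ratio of 22Rv1 to PC3 (FPKM + 1) in untreated cells on the horizontal axis and in treated cells on the vertical axis, 1 point per gene. Vertical distance from the diagonal is the gap, and points in the upper left and lower right quadrants, MYC among them, are genes whose order between the lines was exchanged.

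Genes led by either line differed in base composition. The median GC content of their transcripts was 60.1% for genes led by 22Rv1, 46.8% for those led by PC3 and 50% for all. Across genes the gap followed GC content with a Spearman rho of 0.405, and the change in 22Rv1 did so more closely (0.457) than that in PC3 (0.125), all values coming from the same 4 libraries. With genes put into 10 bins of about equal size by GC content, from the lowest bin to the highest, the median change went from -0.32 to 0.41 in 22Rv1 and from -0.10 to 0.04 in PC3. The highest bin held 61 genes with a gap of 1 or more and 2 with a gap of -1 or less, and the lowest 3 and 12. When the trend with GC was subtracted within each line, an alternative chosen after seeing the data, 119 genes were led by 22Rv1 and 59 by PC3, of which 88 and 48 had been so before. The part of GC content in the gaps was not tested. MT2A then had a gap of 1.99 and MYC of -2.95, while CBX6 went from 1.24 to 1.05. Several genes near the size used went under it: ULK1 to 0.64, SKI to 0.78, TNFRSF10B to 0.97, FKBP5 to -0.88, HMGCS1 to -0.94 and MCM10 to -0.999. Across all settings run, the lowest gap was 0.93 for CKS2 and 0.58 for ULK1, and the gaps nearest to 0 were -0.96 for CDKN1A and -0.93 for MSMO1.

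**Figure D5:**
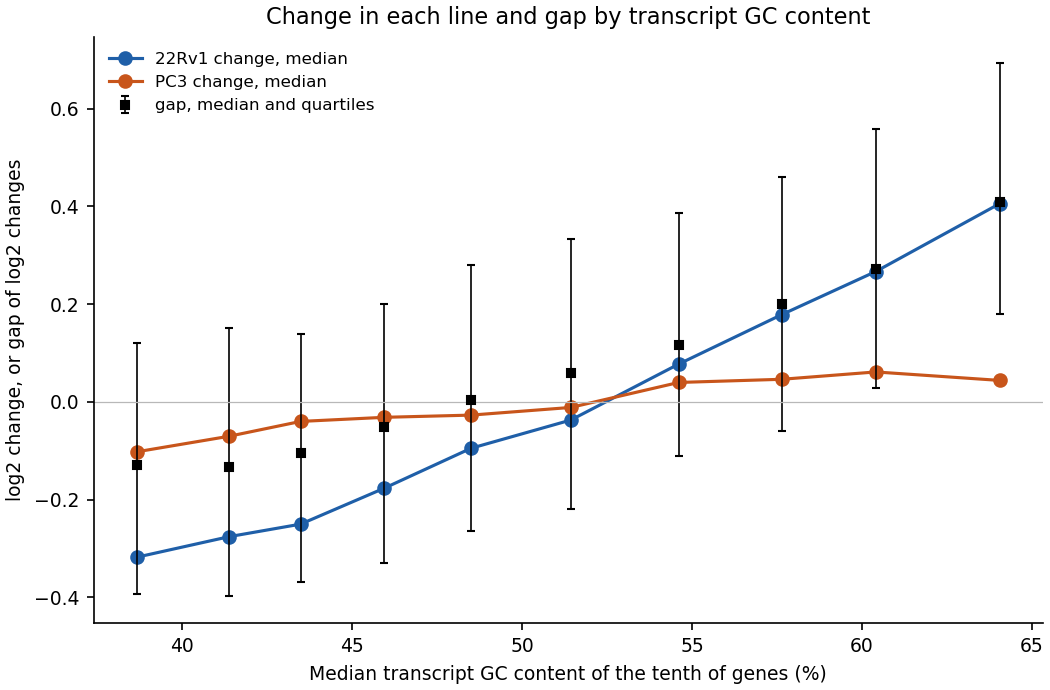
Median log2 change in 22Rv1 (blue) and PC3 (orange) and median gap with quartiles (black) for 10 bins of genes by transcript GC content in percent. The 22Rv1 line climbs from -0.32 to 0.41 and the PC3 line from -0.10 to 0.04, so the gap climbs with GC content.

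Some of the widest gaps were at genes that share exons with another, for which the division of reads is uncertain. The widest of all was that of ENSG00000256646, a readthrough gene at chr7:42909273-42932174 (GRCh38) that shares 90.2% of its exon bases with PSMA2 and C7orf25. Its level was 0.192 and 25.4 FPKM in 22Rv1 and 24.1 and 0.496 FPKM in PC3, a gap of 8.54. PSMA2, a proteasome subunit, was at 43.96 and 28.1 FPKM in 22Rv1 and 19.1 and 52.8 FPKM in PC3 (gap -2.05), and C7orf25 at 11.99 and 2.22 FPKM in 22Rv1 and 2.48 and 12.2 FPKM in PC3 (gap -3.93). The readthrough gene was thus high where the others were low, and the sum of all 3 gave a gap of only -0.52. For the 20 genes past the size used that share at least 50% of their exon bases, FPKM were summed over the overlapping genes. The gap of the sum was past the size used, in either direction, for 3 and within 0.5 of 0 for 12. C7orf25 was among the 3 with its sign reversed, at 2.13 when summed with the readthrough gene alone. Such genes made up 16 of the 176 and 4 of the 72, against 2.11% of all genes compared. PMF1-BGLAP (gap -2.79), ATP6V1G2-DDX39B (3.01) and INO80B-WBP1 (1.94) were among them, with gaps of -0.15, 0.23 and 0.32 once summed.

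Other motifs were counted in the same 250 bases on both strands, each motif on its own, so that 1 stretch may count for several. The AP-1 site was found before 5.36% of genes led by PC3, 6.77% of those led by 22Rv1 and 2.95% of all. For the cyclic AMP response element the shares were 8.93%, 4.51% and 3.77%. The C/EBP-ATF element TGATGNAA had a match before 2 of 56 genes led by PC3, ATF3 being one, 1 of 133 led by 22Rv1 and 1.02% of all. An NF-kB site (GGG, any 2 bases, then TTTCC) stood before 2 of 56 genes led by PC3, NFKBIA being one, 1 of 133 led by 22Rv1 and 2.03% of all. An ER stress element (CCAAT and CCACG separated by 9 bases) stood before HSPA5 alone of the 56, none of the 133 and 0.165% of all. A match is a stretch of letters and shows neither binding nor its absence.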

How the data were processed

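Poly(A)-selected RNA was sequenced as 150-base read pairs, and the authors deposited 1 table of FPKM per gene for the 4 libraries. The submitters' processing notes name Trimmomatic, HISAT2, StringTie and GRCh38. Not given in the sources used here were their versions, the annotation release and the use of strand. Gene types, lengths, exons and GC content came from GENCODE 29, and 2075 of 60617 IDs found no type there. Changes were computed on log2(FPKM + 1), a scale on which low genes change less than in FPKM. FPKM keep no read counts, so depth was estimated from the smallest steps between low values. The calculation was tested on simulated data. The genes named were the 15 highest and 15 lowest gaps, the 4 widest gaps of each of 38 lists, genes changed 2-fold in opposite directions, the 8 narrowest gaps among shared changes, and reference and marker genes. ATF4, ASNS, CCN1, CXCL2, CXCL3, CXCL8, EGR1, FOS, GADD45B, HSPA6, HSPB1, KLF6, LIF, MT1G, TNFAIP2 and ENSG00000256646 lie outside this rule and were named after their values were seen. The same holds for ERRFI1, GADD45A, JUND, MT1E, MT1F, MT1M and SLC3A2. PPP6R2, ANKLE2, RLIM and BCL6 also lie outside it and were named as genes at the edge of the size used. Members and lists were chosen with earlier results of these data known. Alternatives changed the value added, scaling, filter, size used and trends with length and GC content. Python 3.11.15, numpy 2.4.6, pandas 2.3.3 and matplotlib 3.10.9 were used. Some genes are not reported here.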

Additional observations from a re-analysis of the deposited data

Results flagged for a closer look

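Genes that passed 2-fold upwards in one line and downwards in the other stood out, although the difference was not tested for any of them. MYC had a gap of -2.81. The remaining 5 share exons with other genes: ENSG00000256646 (8.54), ENSG00000257390 (-4.03), C7orf25 (-3.93), ATP6V1G2-DDX39B (3.01) and PMF1-BGLAP (-2.79). Outside the protein-coding genes, the 7SK small nuclear RNA stood at 55.4 FPKM in treated 22Rv1, beside 8.61 FPKM in the untreated library of that line, and PC3 went from 5.54 to 14.6 FPKM.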

How the results depend on the processing

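Adding 5 in place of 1 before the log left 67 genes led by 22Rv1 and 43 led by PC3, and a 3-fold size left 10 and 19. Lowering the filter to 1 FPKM gave 278 led by 22Rv1, from 10218 genes compared. Subtracting the trends with GC content and length, chosen after seeing the data, left 107 led by 22Rv1. Under the other settings run, both counts stayed within 1.5 times of 176 and 72. Equal protein-coding sums gave 132 and 99. In these settings no named gene changed the sign of a gap that was past the size used, and 20 of 61 fell under it in at least 1 setting. The medians of 9 lists changed sign under some setting, those of MAP kinase phosphatases and YAP targets in 5 settings each. The cause was not tested for any of these. No paired analysis was possible because each group has 1 library, and no library could be left out for the same reason. Depth limits gaps of low genes, such as ENSG00000256646 with a counting error of 0.58.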
